A study of Mus musculus with 12 samples.

Results

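The 10 genes described here encode the enzymes that write and remove DNA methylation and the partners that help them: Dnmt1, Dnmt3a, Dnmt3b, Dnmt3l, Uhrf1, Hells, Tet1, Tet2, Tet3 and Mbd1. They were taken by name from the 22350 protein-coding genes of the GENCODE M1 annotation of mm9, and all 10 were found there. Methylation was read by reduced representation bisulfite sequencing, in which DNA is cut with MspI at CCGG so that short, CpG-rich fragments are sequenced. The cells were mouse proximal tubule epithelial cells labelled Pkd1 heterozygous (PKD1-Het), grown from Pkd1 flox/-:TSLargeT animals and used at passage 3. All groups shared that genotype and differed only in what they received for 24 h. PBS was the control, Aza was 50 µM of free 5-aza-2′-deoxycytidine (decitabine), F-MTAza combined the same dose of Aza with metformin (300 µM) and tolvaptan (10 µM), all unencapsulated, and NP-MTAza carried these drugs at these doses in micelles. Each group had 3 libraries. The labels do not say whether replicates were separate cultures, so p-values measure the spread between libraries, which may be technical. Cell identity could not be checked here, because methylation tables hold no transcript markers.

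DNA methyltransferases add a methyl group to the cytosine of a CpG. Dnmt1 copies the mark to the new strand after replication and is brought to hemimethylated sites by Uhrf1, while Dnmt3a and Dnmt3b place it on unmethylated DNA and Dnmt3l, which has no catalytic activity, assists them. Hells is a chromatin remodeller that opens packed DNA to these enzymes, the Tet enzymes oxidise methylcytosine as a step toward its removal, and Mbd1 binds methylated CpGs. Aza is a deoxycytidine analogue that, once built into DNA, traps the methyltransferases on it, and methylation is then diluted as cells divide.

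In the 10 libraries used, reads summed over CpGs came to between 25336747 and 65817118, over 1860418 to 3979987 CpGs with at least 5 reads. Medians were 7 to 9 reads per CpG. Here and below, a read that covers several CpGs counts once at each, so a sum of reads is not a count of separate molecules. Over all listed CpGs the level was 65.6% to 71.2% in PBS and 44.4% to 47.8% in the treated libraries. Aza replicates 1 and 2 were left out, since over CpGs with at least 10 reads their levels had a Spearman correlation of -0.0066 to 0.0049 with every other library and with each other (21 pairs), against 0.722 to 0.863 among the other 10 (45 pairs). PBS replicate 2 was the shallowest of the PBS libraries and lacked many CpGs near starts. Calls near starts that rest on it are therefore given without it too, except that of the whole Hells promoter. A level is the share of methylated reads over all cells, and fewer methylated cells cannot be told apart from fewer methylated copies per cell.

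Next to transcript starts, 3 at the start of a gene and 1 inside Dnmt3a, 4 stretches of neighbouring CpGs, chosen after their values were seen, carried the results that follow, and their sequences show how thinly or densely the CpGs lie. A stretch is a run of at least 4 CpGs with gaps of at most 200 bp. Each sequence is from mm9 and runs 5′ to 3′ on the strand of its gene, with the CpGs that were read in capitals and distances counted from the gene start. The Hells piece holds 8 read CpGs of the stretch upstream of the start (chr19:39003522-39003820, + strand, -1883 to -1585 bp). That of Uhrf1 holds 6 (chr17:56442193-56442333, + strand, -551 to -411 bp), and that of Tet3 holds 10 (chr6:83391810-83392066, - strand, -394 to -138 bp). The Dnmt3a piece lies in an intron, 416 to 670 bp before the start of the shorter transcript Dnmt3a-005, and holds 16 (chr12:3891058-3891313, + strand).
Hells: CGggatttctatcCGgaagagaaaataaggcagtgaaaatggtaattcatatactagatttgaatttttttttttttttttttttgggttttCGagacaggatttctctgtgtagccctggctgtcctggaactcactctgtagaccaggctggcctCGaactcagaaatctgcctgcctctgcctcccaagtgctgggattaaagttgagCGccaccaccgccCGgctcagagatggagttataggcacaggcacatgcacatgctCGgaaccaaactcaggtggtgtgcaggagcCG
Uhrf1: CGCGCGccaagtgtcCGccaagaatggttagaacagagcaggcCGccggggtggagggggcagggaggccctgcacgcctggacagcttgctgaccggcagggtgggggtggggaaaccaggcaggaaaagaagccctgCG
Tet3: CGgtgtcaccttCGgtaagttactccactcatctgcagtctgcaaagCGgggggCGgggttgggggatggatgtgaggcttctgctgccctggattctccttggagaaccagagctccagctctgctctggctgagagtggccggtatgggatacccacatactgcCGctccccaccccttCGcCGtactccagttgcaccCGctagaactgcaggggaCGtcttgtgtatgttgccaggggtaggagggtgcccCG
Dnmt3a: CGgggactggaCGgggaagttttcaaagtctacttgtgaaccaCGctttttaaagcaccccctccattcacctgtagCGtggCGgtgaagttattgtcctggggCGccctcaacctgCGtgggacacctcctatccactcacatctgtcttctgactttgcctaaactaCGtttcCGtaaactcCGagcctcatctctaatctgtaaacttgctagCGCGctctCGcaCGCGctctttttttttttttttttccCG
The Uhrf1 piece is the richest in G and C at 68.1%, the Tet3 piece has 61.1%, the Dnmt3a piece 50.4% and the Hells piece 48.2%. Cut into consecutive pieces of 50 bases, the Uhrf1, Tet3 and Dnmt3a sequences matched mm9 at 1 place each. In the Hells sequence, 3 of 5 such pieces did, and the most repeated matched at 2754 places.

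Of the 4 promoters that could be tested, that of Hells had the highest level in PBS, and its methylated upstream stretch lost methylation after the combination. A promoter spans the 2000 bp before a gene start and the 500 bp after it, and the upstream stretch of 13 CpGs reaches a little past it (chr19:39003266-39003979, -2139 to -1426 bp). Its level was 95.4%, 97.3% and 94.7% in the PBS libraries. It was 47.7%, 55.1% and 67.8% in F-MTAza, 58.5%, 52.1% and 59.7% in NP-MTAza, and 48.0% in Aza replicate 3. All treated libraries thus lay below all PBS libraries, with no overlap. From PBS to the 6 combination libraries the level fell by 39.0 points, from 95.8% ± 1.33 (SD, n = 3) to 56.8% ± 6.94 (SD, n = 6), adjusted p = 3.29e-05 in a limma fit over all stretches in the genome. Over the 12 of its 13 CpGs whose surrounding 50 bases match mm9 at 1 place, the level fell by 38.8 points. F-MTAza and NP-MTAza sat at 56.9% ± 10.2 and 56.8% ± 4.09 (SD, n = 3 each). Among 19948 stretches within 5 points of it in PBS, the median difference was -31.6 points, and 85.7% of them lost less.

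Downstream of that block, the start of Hells itself was nearly free of methylation. Over every CpG listed within 500 bp of the start, a window called the core promoter here, 6 of 1509 reads were methylated in the 9 libraries that had any, and no library passed 1.92%. From 369 to 1039 bp downstream, 20 CpGs read 7.39%, 9.86% and 6.99% in PBS and between 2.69% and 6.41% in the combination. The groups did not overlap, but the difference of -4.25 points missed the test (adjusted p = 0.051) and is under the 10 points that a call needs. The methylated block upstream and the open stretch downstream are more than 1000 bp apart, so the level of the whole promoter mixes them. It read 73.2%, 97.0% and 58.4% in the PBS libraries, because PBS replicate 2 had reads in the upstream block only. The promoter call, at -35.6 points (limma, adjusted p = 0.00762), includes that library, and its size without it is not given here. Without PBS replicate 2 the upstream stretch fell by 38.3 points (limma, adjusted p = 0.000578).

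**Figure D1:**
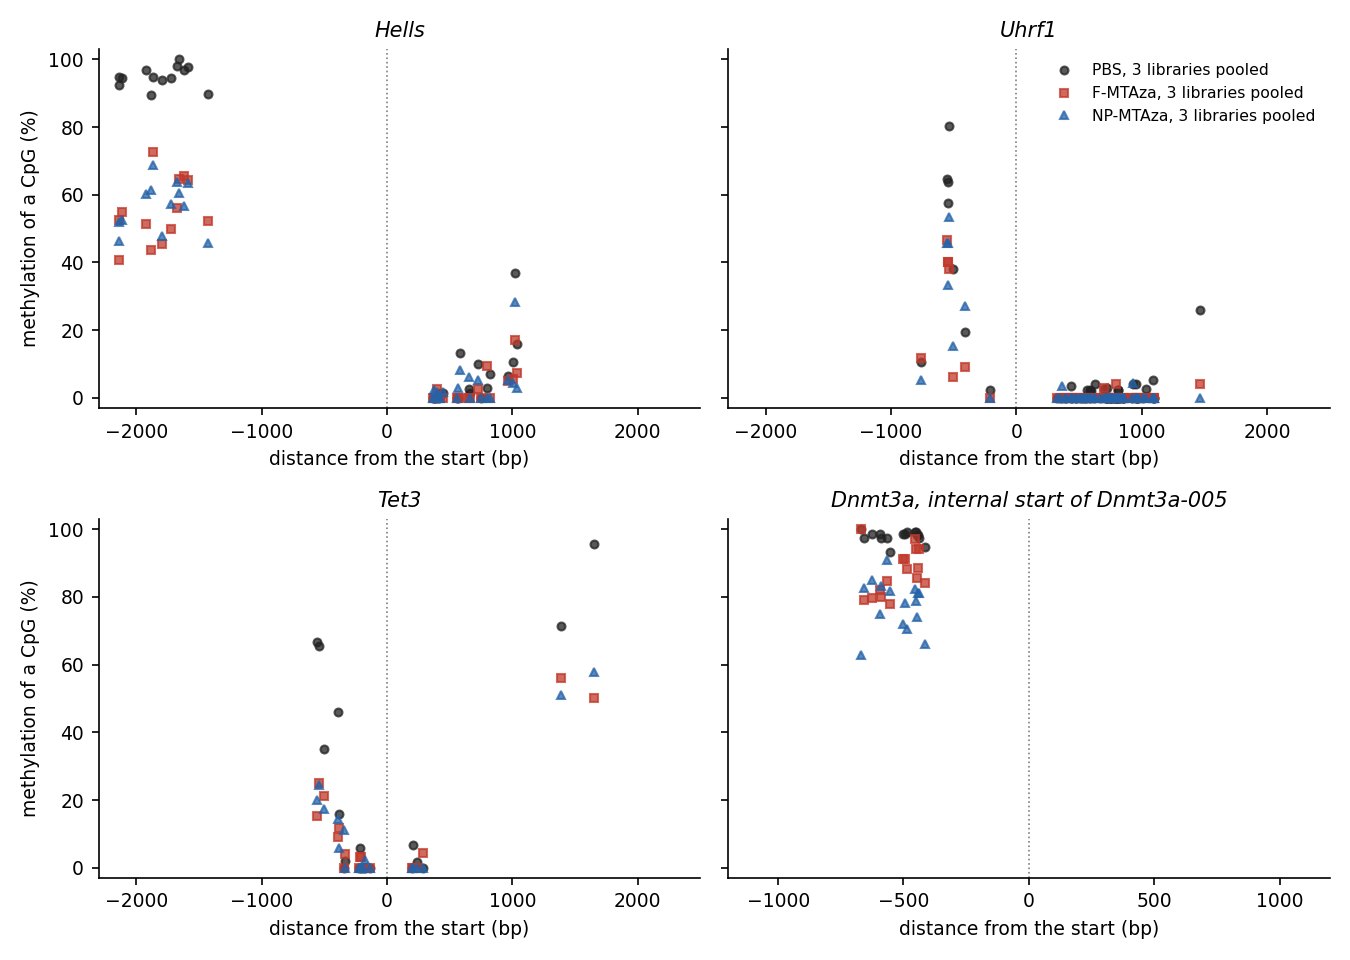
Methylation (%) of single CpGs against the distance (bp) from the start of Hells, Uhrf1 and Tet3 and from the internal start of Dnmt3a-005. Each point is 1 CpG with the reads of 3 libraries pooled, black for PBS, red for F-MTAza and blue for NP-MTAza, and the dotted line marks the start. The Hells block upstream is near the top in PBS and drops in both combinations, while CpGs just downstream of the Hells and Uhrf1 starts lie near 0 in every group, and the Dnmt3a CpGs drop least.

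The core promoter of Hells is rich in CpGs, with a ratio of observed to expected CpGs of 0.936 in mm9, above 94.7% of 22350 core promoters, whereas those of Tet1 and Dnmt3l are poor in them, at 0.270 and 0.212. Core promoters of the other members were mostly at low levels, except that of Tet1, and that of Dnmt3l gave no reads. Of the 10 promoters, 8 held a CpG read in enough libraries and 4 reached the minimum of 3 CpGs and 20 reads in every library. A region counted as lower when it lost 10 points or more with an adjusted p below 0.05, which held for Hells and Tet3, 2 of 4, while 31.3% of 9591 promoters in the genome were called lower. Of the distal windows, from 2000 to 500 bp upstream, only those of Hells and Uhrf1 could be tested, and both were lower, where 59.1% of 2827 were. That of Uhrf1, at -16.2 points (adjusted p = 0.0338), lost its call without PBS replicate 2 (-11.4 points, adjusted p = 0.164), PBS replicate 3 (0.0943), F-MTAza replicate 1 (0.0527) or NP-MTAza replicate 3 (0.0671). Of the core promoters, 3 were tested and 0 called by limma, with 1 at an unadjusted p under 0.05, while 23.0% of 8122 were called in the genome. With 4 or fewer tested, these counts cannot be set apart from the background.

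Among the writers, the core promoter of Dnmt1 gave 9 methylated reads of 483 over 9 libraries, between 0 and 11.1%, but no CpG there was read in enough libraries to enter a comparison. The 6 CpGs of the Dnmt3a core promoter read 3.37% and 23.9% in PBS replicates 1 and 3, had no reads in PBS replicate 2 or Aza replicate 3, and stayed at or below 4.35% in the combination. Dnmt3b, with 25 CpGs there, read 3.40% and 12.6% in the same PBS libraries and 1.94% to 8.30% in the combination. In PBS replicate 3 alone, both genes stood above every combination library. Dnmt3l, the germline cofactor, has no CCGG within 500 bp of its start and gave no reads there. Its distal window was methylated over every CpG listed, on at most 3 CpGs per library, and was not tested. It read 95.35% and 100% in PBS replicates 1 and 3, and 35.3% to 67.7% in the combination.

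The promoter of Uhrf1 had a similar layout to that of Hells, at a smaller scale. Its 6 upstream CpGs read 45.8%, 71.0% and 57.3% in PBS. They read 22.5%, 38.2% and 34.1% in F-MTAza, and 39.7%, 42.3% and 39.4% in NP-MTAza. The highest combination library was therefore still under the lowest PBS library, whereas Aza replicate 3, at 59.8%, lay within the PBS range. The level fell by 22.0 points (58.0% ± 12.6, SD, n = 3, against 36.0% ± 7.13, SD, n = 6, adjusted p = 0.00571), and without PBS replicate 2 it fell by 15.5 points (adjusted p = 0.0347). Downstream, 58 CpGs from 325 to 1102 bp, mostly in the first intron and around 3 further transcript starts, were at 0 to 2.08% in every library used. This was the longest unmethylated run among the members, with at least 297 reads per library.

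Of the erasers, Tet2 was nearly unmethylated at the CpGs around its start that could be compared, and Tet3 had a partly methylated flank. Across 28 CpGs of the Tet2 core promoter the level was 0.775% and 1.12% in PBS replicates 1 and 3 and at most 4.08% in the combination. PBS replicate 2 had no reads at these 28. Over every CpG that each library listed in that window, PBS read 10.4%, 33.1% and 11.7%, so the window also holds methylated CpGs that too few libraries shared. Upstream of Tet3, 13 CpGs that also overlap the gene B230319C09Rik read 20.9%, 59.2% and 14.0% in PBS and 2.17% to 11.3% in the combination, with 5.26% in Aza replicate 3. PBS replicate 2 stood far above the other PBS libraries. The difference of -24.4 points (adjusted p = 0.00915) shrank to -10.4 points without it (adjusted p = 0.0298), and the promoter as a whole, called at -16.3 points (adjusted p = 0.0302), went to -7.15 points and lost its call (adjusted p = 0.0939). That promoter also missed the test without PBS replicate 1, F-MTAza replicate 1 or 2, or NP-MTAza replicate 1 or 2 (adjusted p from 0.0506 to 0.0616). The annotated start of Tet1 is poor in CpGs, and only 1 CpG of its promoter entered a comparison.

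**Figure D2:**
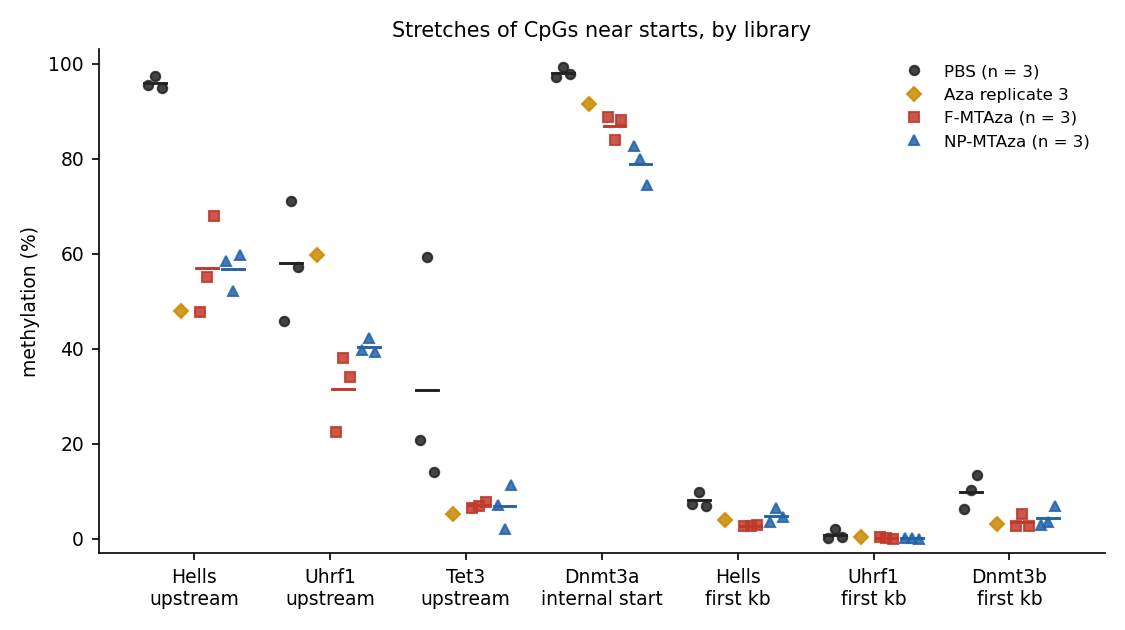
Methylation (%) of 7 stretches of CpGs near starts, 1 point per library, with short lines at group means of 3 libraries. Black circles are PBS, the orange diamond is Aza replicate 3, red squares are F-MTAza and blue triangles NP-MTAza. The Hells upstream stretch falls from 95.8% in PBS to 56.8% in the combination, the Dnmt3a stretch is at 74.4% or more in every library, and those just past the starts of Hells, Uhrf1 and Dnmt3b are at 13.4% or less.

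Dnmt3a kept more methylation before its internal start than most similar stretches did. From this start, in the middle of the gene, a shorter form of the enzyme is transcribed that is known from embryonic stem cells. The 16 CpGs before it (chr12:3891058-3891312) read 97.2%, 99.2% and 97.8% in PBS. They still read 88.7%, 83.8% and 88.1% in F-MTAza, 82.6%, 79.9% and 74.4% in NP-MTAza, and 91.5% in Aza replicate 3. All treated libraries lay below PBS, and for the combination the mean fell by 15.2 points (98.1% ± 1.01, SD, n = 3, to 82.9% ± 5.35, SD, n = 6, adjusted p = 0.000187). Among 16065 stretches in the genome within 5 points of it in PBS, the median difference was -31.8 points and 1.56% lost less. This stretch was singled out after its values were seen, and each library had at least 159 reads over it. The member stretch with the next smallest share was one of 4 exonic CpGs in Uhrf1, at 14772 bp, which fell by 16.4 points, less than all but 2.07% of 11674 similar stretches, on as few as 20 reads.

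Other internal starts gave few values. Of 15 internal start windows in the members (500 bp on each side of transcript starts over 1000 bp into the gene), 3 could be tested and 2 were called lower, where 52.2% of 1476 were. These were Dnmt3a-005, at -14.3 points, and Tet1-201, whose 11 CpGs went from 92.7% ± 0.921 (SD, n = 3) in PBS to 49.8% ± 12.5 in F-MTAza and 69.3% ± 1.99 in NP-MTAza (SD, n = 3 each). The difference between both deliveries at Tet1-201, 19.5 points, had an unadjusted p of 0.00775 and did not pass the test (adjusted p = 0.511). At Dnmt3a-005 it went the other way, with NP-MTAza 13.7 points below F-MTAza (limma, unadjusted p = 0.0112, adjusted p = 0.511). There F-MTAza alone, at -7.39 points against PBS, was not called (adjusted p = 0.0536), and NP-MTAza, at -21.1 points, was (adjusted p = 0.00127). The third was Uhrf1-004, near 0 in all libraries.

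Gene bodies, the rest of each gene past 500 bp, lost methylation in 9 of the 10 members after the combination. Genome-wide 88.7% of 13459 bodies were called lower and 0 higher, so the members' count is near the background. Differences of the 9 ran from -16.7 points in Uhrf1 to -39.5 points in Mbd1, and the median over all 10 was -27.4 points, beside -26.7 over all bodies. In 8 of 10 members every combination library lay below every PBS library, a count for which no genome share is given here. The bodies had 756 read CpGs of 6837 in mm9, between 11 in Mbd1 and 204 in Tet1.

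For the maintenance pair, Dnmt1 (chromosome 9, 20711650 to 20757317) read 90.8%, 90.2% and 94.3% in PBS, and 57.0% to 77.5% in the combination. The body of Dnmt1 fell by 27.6 points, from 91.8% ± 2.23 (SD, n = 3) to 64.2% ± 7.5 (SD, n = 6), adjusted p = 8.83e-05. The loss was largest, among stretches called in Dnmt1, over 6 intronic CpGs at 27659 bp (-32.2 points, adjusted p = 3.82e-05). Uhrf1 (chromosome 17, 56442744 to 56462909) read 46.8%, 36.2% and 44.9% in PBS and 21.4% to 36.5% in the combination, so that 1 F-MTAza library overlapped PBS. Its body fell by 16.7 points (adjusted p = 0.00119), with 49 of 76 CpGs inside the first 2000 bp, where most are unmethylated. With each CpG counted equally it gave -9.36 points, under the threshold of 10, and was not called. The largest called difference within Uhrf1 was -33.2 points at 18780 bp, in 6 CpGs mostly of an exon.

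The de novo enzymes lost about as much. Dnmt3a (chromosome 12, 3806007 to 3914443) went from 94.2% ± 1.44 (SD, n = 3) to 66.8% ± 4.88 (SD, n = 6), a difference of -27.3 points (adjusted p = 1.2e-05). Within it, 7 exonic CpGs at 101696 bp fell by 34.9 points, the largest called loss there. Dnmt3b (chromosome 2, 153475186 to 153513466) read 81.2%, 87.8% and 77.6% in PBS and 45.9% to 53.0% in the combination, a difference of -32.3 points (adjusted p = 1.32e-05). In Dnmt3b the largest called difference was -44.2 points, in 6 intronic CpGs at 3739 bp.

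Dnmt3l (chromosome 10, 77504692 to 77526367) started lower, at 75.9% ± 0.766 (SD, n = 3), and ended at 49.8% ± 4.03 (SD, n = 6), a difference of -26.1 points (adjusted p = 2.83e-05). Its largest called difference, -39.5 points, was in 12 CpGs at 582 bp that also lie in the neighbouring gene Aire, so the values belong to both genes. There PBS read 77.3%, 88.1% and 77.8%, F-MTAza 33.3%, 54.7% and 55.9%, and NP-MTAza 35.8%, 33.5% and 36.3%. All 6 combination libraries were below Aza replicate 3, at 58.3%.

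Hells (chromosome 19, 39005405 to 39045541) was the exception among bodies: 26.0%, 31.4% and 27.0% in PBS, 32.6%, 24.1% and 25.6% in F-MTAza, and 17.0%, 27.8% and 20.7% in NP-MTAza. PBS and the combination overlapped, and the difference of -3.51 points missed the test (adjusted p = 0.301). Of its 24 read CpGs, 13 lie in the first 2000 bp, mostly in the open stretch described above. With each CpG counted equally instead of by reads, the same body gave -16.1 points and was called (adjusted p = 0.00022). From 2000 bp onward its 11 CpGs went from 95.0% ± 1.89 (SD, n = 3) to 60.2% ± 7.93 (SD, n = 6), a difference of -34.7 points (adjusted p = 2.24e-06).

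Counted that way, a choice made after the data had been seen, all 10 member bodies were lower, where 96.6% of 11592 bodies in the genome were. Their differences then ran from -25.1 points in Dnmt3l to -40.2 points in Mbd1. PBS and combination libraries did not overlap in any of the 10, and how many bodies in the genome separate in this way is not given here. The 10 members kept between 58.7% and 71.8% of their PBS level, and the median over all bodies that were at 20% or more in PBS was 64.9%.

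**Figure D3:**
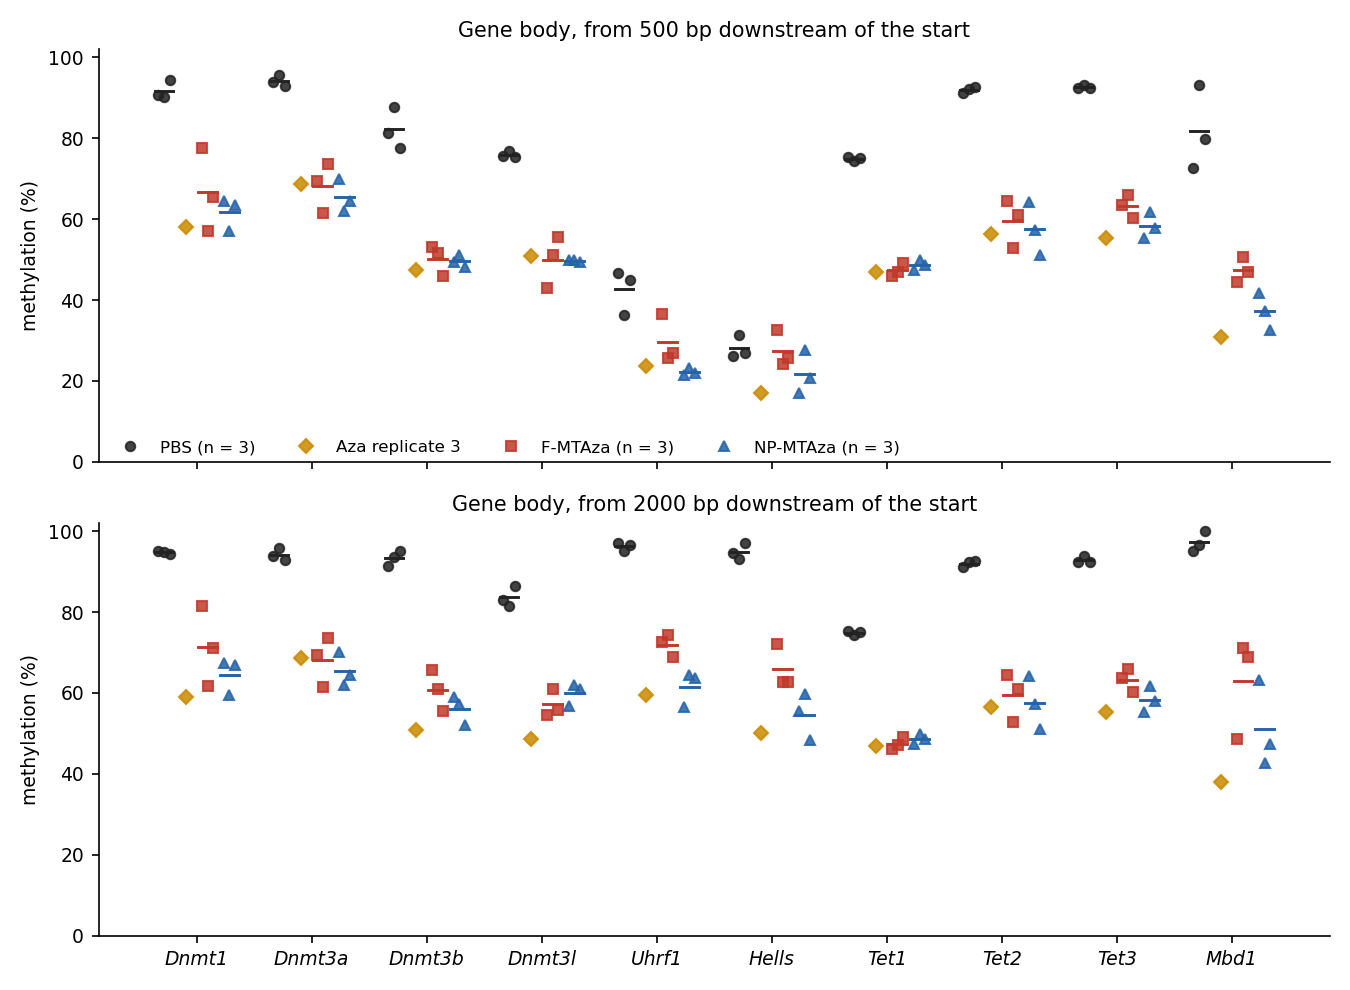
Methylation (%) of the gene bodies of the 10 members, 1 point per library, with short lines at group means of 3 libraries. The upper panel starts 500 bp and the lower panel 2000 bp downstream of the start. Black circles are PBS, orange diamonds Aza replicate 3, red squares F-MTAza and blue triangles NP-MTAza. Hells overlaps between groups in the upper panel and separates in the lower one, where PBS means lie from 74.9% to 97.2% and combination means from 48.0% to 68.0%.

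The Tet genes lost methylation along their bodies too, with 204 read CpGs in Tet1, 138 in Tet3 and 37 in Tet2. Tet1 (chromosome 10, 62267318 to 62361866) read 75.3%, 74.3% and 75.1% in PBS and 46.0% to 49.8% in the combination, with 47.0% in Aza replicate 3. Every library of Tet1 had at least 2296 reads. The spread within groups was small: 74.9% ± 0.517 (SD, n = 3) against 48.0% ± 1.41 (SD, n = 6), a difference of -26.9 points (adjusted p = 5.73e-06). Tet2 (chromosome 3, 133126643 to 133207354) went from 92.0% ± 0.768 (SD, n = 3) to 58.5% ± 5.72 (SD, n = 6), which is a difference of -33.5 points (adjusted p = 8.85e-06). Tet3 (chromosome 6, 83312367 to 83391672) went from 92.6% ± 0.464 (SD, n = 3) to 60.7% ± 3.84 (SD, n = 6), which is a difference of -31.9 points (adjusted p = 3.03e-06).

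Inside Tet1, 2 neighbouring intronic stretches of 43 CpGs each differed in their level in PBS, and the first had the lowest of the 16 stretches of the gene. The one from 11620 to 12370 bp read 34.9%, 31.8% and 40.9% in PBS and 16.2% to 27.4% in the combination (-12.7 points, adjusted p = 0.0135), and without PBS replicate 3 it missed the test (-10.1 points, adjusted p = 0.0704). The one from 12575 to 14121 bp read 75.0%, 71.0% and 75.5% in PBS and 42.7% to 49.0% in the combination (-28.1 points, adjusted p = 0.000106). The largest called loss in Tet1 followed directly, at 14614 bp, with -40.1 points over 5 CpGs. In Tet3 it was -54.3 points, over 6 intronic CpGs at 60413 bp that read 99.4%, 97.6% and 97.5% in PBS. Combination libraries there were widely spread, from 6.14% to 70.1%, with 42 reads in the shallowest library. No stretch of Tet2 could be tested.

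Mbd1 (chromosome 18, 74427926 to 74442339), the reader, had the largest body loss of the 10. It read 72.6%, 93.1% and 79.8% in PBS, 44.6%, 50.5% and 46.8% in F-MTAza, and 41.8%, 37.4% and 32.7% in NP-MTAza. That is a difference of -39.5 points (adjusted p = 6.78e-05), and 97.4% of all bodies lost less, but it rests on 11 CpGs and as few as 72 reads. Both values include PBS replicate 2, at 93.1% above PBS replicates 1 and 3, and the rank without it was not computed. The 25 CpGs from -44 to 714 bp, across its start, read 11.8%, 28.6% and 12.3% in PBS and 1.62% to 6.41% in the combination. This was the one called stretch of Mbd1, at -13.8 points (adjusted p = 0.00297), and without PBS replicate 2 the difference was -8.31 points (adjusted p = 0.0124), under the threshold of 10. Over every CpG listed in the distal window of Mbd1, at most 5 per library, each PBS library read 100%. Combination libraries with reads there were at 11.1% to 42.9%, and the window was not tested.

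**Figure D4:**
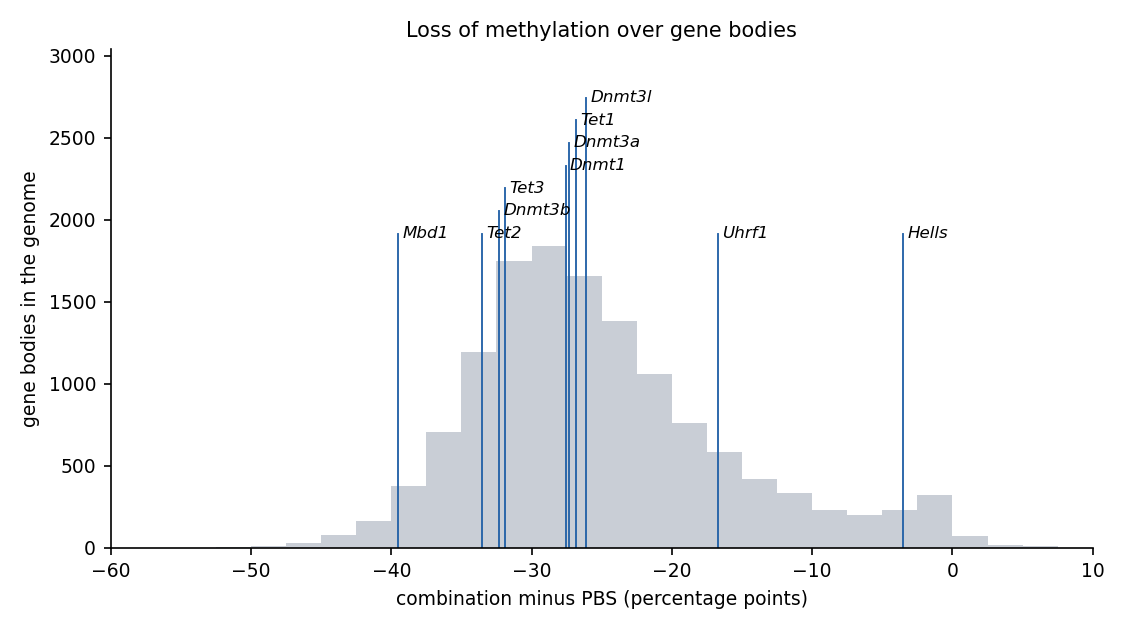
Difference in gene body methylation, combination minus PBS (percentage points), for 13459 bodies in the genome (grey bars) and the 10 members (blue lines). Of the members, 7 lie between -33.5 and -26.1 points near the peak of the distribution, Mbd1 lies to the left of it, and Uhrf1 and Hells lie to the right.

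Across the 70 stretches of the members, 46 could be tested and 42 were called lower, where 80.2% of 58518 were in the genome. In 37 of the 42, every combination library was below every PBS library. The share of all stretches in the genome that separate in this way is not given here, so this count is not particular to the members. The median difference over the 46 was -28.0 points, beside -26.1 over all stretches. The 4 that were not called were the stretches just past the starts of Dnmt3b, Uhrf1, Hells and Tet3, all under 10% in PBS on average. In PBS, 46 of the 70 were at 90% or more, 6 were under 15%, and the other 18 lay in between, 9 of them in Tet1.

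**Figure D5:**
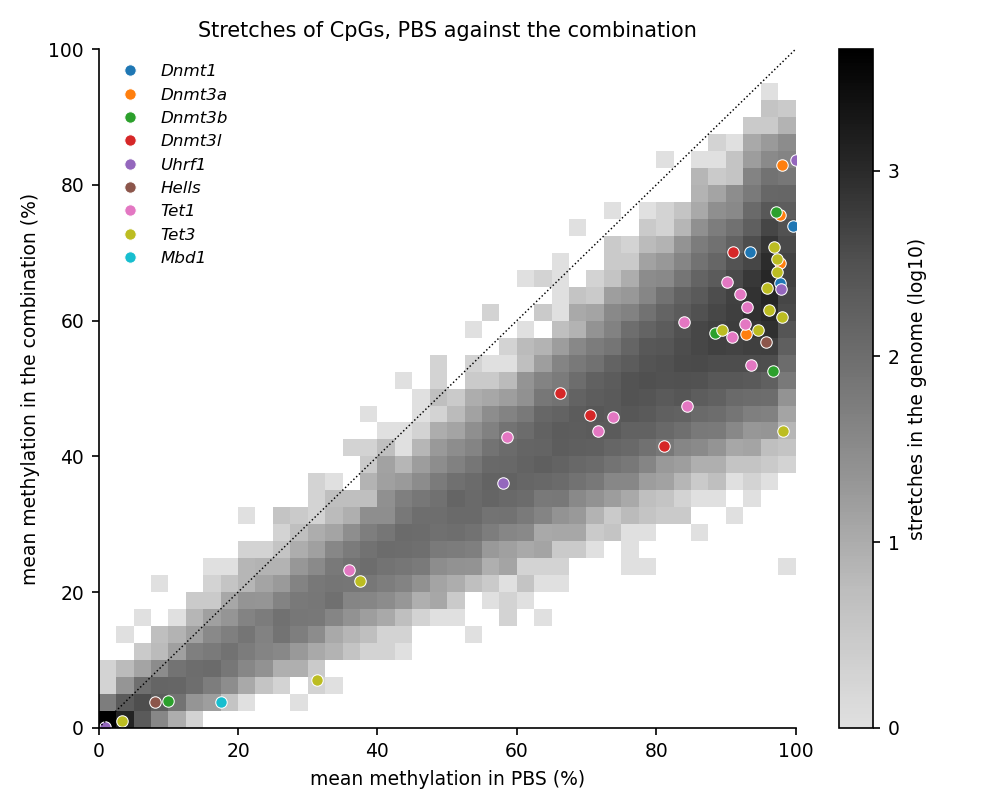
Mean methylation (%) of each tested stretch in the 3 PBS libraries (x) and the 6 combination libraries (y), with member stretches in colour and all stretches of the genome in grey (log10 scale). The dotted line marks equal levels. Member stretches follow the grey cloud, with the Dnmt3a stretch before the internal start (98.1% and 82.9%) near its upper edge and a Tet3 stretch (98.2% and 43.8%) near its lower edge.

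At single CpGs, tested by a likelihood ratio test on pooled reads with q under 0.01 and at least 35 points, 83 of 387 member CpGs were hypomethylated in F-MTAza, 21.4%, where 22.0% of 511949 CpGs in the genome were. In NP-MTAza it was 164 of 571, 28.7%, where 25.9% of 814536 were. The same test gave 0 hypermethylated member CpGs in both. By gene, the NP-MTAza counts ran from 5 of 19 in Hells and 8 of 78 in Uhrf1 to 44 of 97 in Tet3 and 11 of 18 in Tet2. Tests that share the PBS libraries are not independent of each other. The test has no term for spread between libraries. Corrected for that spread with a chi-square test, it kept 74 calls in F-MTAza (19.1%, 18.8% in the genome). In NP-MTAza it kept 149 (26.1%, 22.6% in the genome). With an F test it made 0, among the members and in the whole genome.

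Free and micelle delivery could not be told apart at any member body. In NP-MTAza against F-MTAza, limma called 0 of 10 member bodies, with 0 at an unadjusted p under 0.05, and 0.0% of 13459 bodies in the genome, of which 718 had an unadjusted p under 0.05. The differences of the members ran from -10.0 points in Mbd1 to 1.24 points in Tet1. NP-MTAza was lower than F-MTAza in 9 of 10, beside 63.9% of all bodies. From 2000 bp onward, Uhrf1 had -10.3 points (unadjusted p = 0.00927) and Hells -11.3 points (unadjusted p = 0.0239), and neither passed the adjustment (0.604 and 0.679).

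Aza alone rests on 1 usable library, and no test was made. In Aza replicate 3 all 10 member bodies lay below the lowest PBS library, with differences from the PBS mean of -51.0 to -11.1 points. Their median was -30.8 points, beside -28.5 over all bodies. In 9 of 10 Aza replicate 3 was within the range of the 6 combination libraries, and in Mbd1, at 30.8%, below it. From 2000 bp onward it was within that range in 6 of 10 and below it in 4. The median difference there was -36.3 points, beside -31.5 over all bodies. No genome shares are given for these counts.

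Other genes of DNA methylation, its reading and removal and the methyl donor were read from a list of 50. Of their promoters, 30 were tested and 4 were lower (31.3% in the genome), with 0 higher and a median of -2.46 points, beside -4.94 over all promoters, and 19 were under 15% in PBS. Of their core promoters, 4 of 24 were lower (23.0% in the genome), and of their bodies 32 of 43 (88.7% in the genome), with a median of -25.5 points. The largest called losses at a promoter or core promoter were in 5 genes. Smug1, a glycosylase of base excision repair, fell by 37.2 points at its core promoter, from 95.2% ± 2.92 (SD, n = 3) to 57.9% ± 10.5 (SD, n = 6). The core promoter of Zbtb4, a zinc finger protein that binds methylated DNA, fell by 33.4 points, and the promoter of Zbtb33 (Kaiso), a relative on the X chromosome, fell by 24.2 points. The promoter of Trim28, a corepressor, fell by 28.4 points, and the core promoter of Cxxc4, which binds unmethylated CpGs, fell by 12.8 points.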

How the data were processed

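After trimming (Trim Galore 0.4.4), the authors mapped reads to mm9 with Bowtie2 within Bismark 0.20.1, merged both strands of a CpG and deposited, per library, the methylated and total read counts and the percent methylated (rounded down) of CpGs with at least 5 reads. Levels here were computed from the deposited read counts, not from the percent column. The 1291659 CpGs with at least 5 reads in 2 of 3 libraries of PBS, F-MTAza and NP-MTAza were used. Reads were summed per gene region and per stretch of neighbouring CpGs, each read counting once at every CpG it covers. A test needed at least 3 CpGs and 20 reads in each of the 10 libraries used, Aza replicate 3 included. That library was a group of its own in the fit and was not tested.

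Arcsine-transformed levels were compared with limma 3.58.1 (R 4.3.3) over all regions of a class, with Benjamini-Hochberg adjustment, the combination being the mean of F-MTAza and NP-MTAza. Single CpGs were tested on pooled reads, following the authors' thresholds. Other steps ran in Python 3.11.15 with pandas 2.3.3, pysam 0.24.0, scipy 1.17.1 and matplotlib 3.10.9. The tests were run on simulated data that differ from the real data. For bodies, 200 of 13459 were changed, where 88.7% were called here. For single CpGs, reads were drawn without spread between libraries. These runs therefore cannot show how many of the real calls are false. Reads carry no molecular identifiers.

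Named were all 10 members, in each the stretch with the largest called loss, and, of 50 further genes, up to 6 with the largest called promoter or core promoter loss. Members and lists were chosen with earlier results of these data known. Alternatives covered read minimums, scale, weighting, thresholds, libraries left out and a replicate block.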

Additional observations from a re-analysis of the deposited data

Results flagged for a closer look

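The 2 Aza libraries that no comparison used read above PBS in stretches of Dnmt3b and Uhrf1 that were little methylated in PBS. In the stretch of 33 CpGs from 247 to 733 bp past the start of Dnmt3b, Aza replicate 1 read 55.4% over 101 reads and Aza replicate 2 read 52.6% over 38 reads, where the highest PBS library read 13.4% and Aza replicate 3 read 3.09%. In the stretch of 58 CpGs from 325 to 1102 bp past the start of Uhrf1, they read 41.0% over 100 reads and 34.1% over 126 reads, where the highest PBS library read 2.08% and Aza replicate 3 read 0.313%. Over all listed CpGs these libraries were at 45.7% and 46.7%, so values of this size are not particular to Dnmt3b and Uhrf1. Both also held repeated lines for the same CpG (35321 and 34667). Their levels were unrelated to those of all others across the genome, as given above, and what sets them apart was not tested.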

How the results depend on the processing

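Lower gene bodies numbered 9 or 10 of the 10 tested under most alternatives, 8 of 10 at 20 points, and 8 of the 9 that could be tested with 5 reads in all 10 libraries, at least 10 reads, 5 CpGs and 100 reads, or all 12 libraries. Under every alternative 0 differed between NP-MTAza and F-MTAza. The promoter count of 2 of 4 was the least stable. It was 1 of 3 when CpGs needed 5 reads in all 10 libraries, and 1 of 1 with at least 10 reads. On the percent scale, at 20 points or with a replicate block it was 1 of 4. With every listed CpG it was 3 of 5, and with all 12 libraries 0 of 3. With NP-MTAza replicate 3 alone for its group, the differences were -34.1 points in Hells and -14.8 points in Tet3. That fit assumes that a lone library varies like the other groups. Leaving out 1 library gave 1 to 2 of 4, or 1 of 6 without PBS replicate 2. Lower stretches numbered 42 of 46 tested, 13 of 14 with at least 10 reads, 8 of 10 with 5 CpGs and 100 reads, and 11 of 16 with all 12 libraries, since fewer could be tested there. Leaving out 1 library gave 40 to 45. Hypomethylated member CpGs in F-MTAza went from 83 of 387 to 23 of 105 with at least 10 reads (21.9%, 20.8% in the genome). At 25 points they were 174 of 387 (45.0%, 39.9% in the genome). In NP-MTAza they went from 164 of 571 to 74 of 253 (29.2%, 25.4% in the genome) and 299 of 571 (52.4%, 45.2% in the genome). The F test called 0 CpGs in the whole genome in both. Leaving out 1 library gave 86 to 115 and 170 to 228, with more CpGs tested each time. The chi-square version was added after seeing the data. The Dnmt3a stretch, at -15.2 points, was not called at 20 points, and the Tet3 upstream stretch was at -22.2 points (adjusted p = 0.0629) with NP-MTAza replicate 3 alone. Leaving out 1 library moved the Dnmt3a stretch between -16.1 and -14.0 points, Hells between -41.7 and -36.7, Tet3 between -33.0 and -10.4 and Uhrf1 between -28.1 and -15.5. Over 75 single values and 1438 alternatives, 41 lost their call, 4 gained one and 0 reversed. The Uhrf1 body, with each CpG counted equally, was at -9.36 points, under the threshold, and the Uhrf1 distal promoter at -11.4 points (adjusted p = 0.164) without PBS replicate 2. The cause of these shifts was not tested. Over gene bodies, deviations from group means correlated at -0.066 to 0.013 for same-numbered libraries and at -0.042 to 0.080 for differently numbered ones. No pairing was seen, but the check cannot exclude one, since deviations from a mean of 3 libraries sum to 0. With the replicate block the Tet3 promoter missed the test (adjusted p = 0.0533), and 9 bodies and 42 stretches were called.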
